A study of Mus musculus with 3 samples.

Results

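The 10 genes described here are transcriptional targets of p53, listed by name out of 56980 genes listed in each library: Cdkn1a, Mdm2, Ccng1, Bax, Phlda3, Trp53inp1, Zmat3, Eda2r, Aen and Bbc3. Droplet libraries of bone marrow cells were made from male C57BL/6 mice at day 14, with 1 library per group and 3 mice pooled in each. Control mice were not irradiated, IR mice received 6 Gy of gamma-irradiation with solvent, and IR+CBD mice received 6 Gy with cannabidiol (CBD), a plant cannabinoid, by intraperitoneal injection before and after irradiation. Cells were sorted by lineage markers and Kit and remixed at 5:4:1 (Lin-Kit+ to Lin-Kit- to Lin+), so that shares of cells follow the sort. The label of the IR+CBD library names only the CBD treatment, and its irradiation is taken from the stated design of the series.

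p53 is stabilised after DNA damage, to which bone marrow progenitors are highly sensitive, and switches on genes that stop the cell cycle, restrain p53 itself or start cell death. Cdkn1a encodes the cell cycle inhibitor p21 and Ccng1 a cyclin of the same response, while Mdm2 encodes the ubiquitin ligase that returns p53 to a low level. Bax and Bbc3 act at the mitochondrion to start apoptosis, Aen encodes a nuclease of apoptotic cells, Phlda3 a repressor of Akt signalling, Eda2r a receptor of the TNF family, Trp53inp1 a nuclear protein that promotes cell death, and Zmat3 an RNA-binding protein. The comparison of IR with Control asked whether any lineage still held a damage response at day 14, and that of IR+CBD with IR whether CBD went with a different level of it.

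The Control, IR and IR+CBD libraries held 199383228, 206932522 and 177806843 unique molecular identifiers (UMIs) in 12200, 11951 and 11884 barcodes. Cells with at least 200 genes and at most 5% mitochondrial UMIs numbered 10674, 10345 and 10273, with a median of 12479.5, 14211 and 12502 UMIs per cell. Levels are UMIs of a gene summed over cells, per 1000000 UMIs of the same cells (CPM), and ratios are of CPM between libraries. A gene counts as measured in a comparison when its UMIs in the libraries compared sum to 50 or more, and as past the fold at a ratio of 1.5 or more, or of 1 over 1.5 or less. All intervals below are exact 95% intervals of counting error only, since 1 library per group gives no spread between mice and no test between groups. The pairs of libraries shared 26, 28 and 34 kept barcodes, which were left in.

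Cells were grouped into 7 gates by the raw UMIs of lineage genes, and a cell may meet several: Mpo at least 5, Klf1 at least 2, Cd79a at least 2, Retnlg at least 5, Siglech at least 3, Itga2b at least 2, and Cd34 at least 1 together with Adgrl4 at least 1. In the order Control, IR and IR+CBD, the Mpo gate held 3227, 2916 and 3294 cells and the Klf1 gate 586, 1446 and 1181. The Cd79a gate held 3524, 4072 and 3456 cells, and the Retnlg gate 1004, 1076 and 1215. The Siglech gate was small, with 273, 46 and 79 cells, and the Itga2b gate held 531, 390 and 395. The gate on Cd34 together with Adgrl4 held 3116, 1952 and 1970 cells, of which 69.0%, 87.4% and 83.4% also met the Mpo gate. Cells in no gate numbered 1549, 1072 and 1236.

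Marker lists were checked against the gates. In the Mpo gate all 5 myeloid progenitor markers were detected in each library and summed to 17192, 19056 and 21752 CPM, Prtn3 being the most abundant. All 6 erythroid markers were detected in the Klf1 gate (4082.5, 2613 and 3224 CPM, most of all Car1), and all 6 B-lineage markers in the Cd79a gate (8140.3, 8438 and 8474 CPM, most of all Ebf1). The 6 neutrophil markers of the Retnlg gate summed to 128738, 123802 and 132936 CPM, led by S100a8. The 6 plasmacytoid dendritic markers of the Siglech gate summed to 6946, 6816 and 8234 CPM, led by Tcf4 in Control and IR+CBD and by Bst2 in IR. In the Itga2b gate the megakaryocyte gene Pf4 read 925, 322 and 647 CPM and Gp9, another, 21.7, 18.5 and 27.2, while the 4 basophil and mast cell genes summed to 3768, 3003 and 2786 CPM, led by Prss34 at 1699.5, 1100.45 and 1037. That gate is therefore named by its gene only. The 9 stem and multipotent markers of the Cd34 and Adgrl4 gate, led by Adgrl4, summed to 1036, 722 and 872 CPM, and 4 endothelial genes reached 6.28, 1.74 and 1.94 CPM there, led by Emcn. Adgrl4 belongs to the rule of this gate, so its presence and its part of the sum were fixed beforehand and check nothing.

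Comparing IR with Control, in none of the 7 gates were more than 1 of the measured members higher past the fold of 1.5. In the Siglech gate 6 of 7 measured members read above Control, each within the fold, and only for Bax did the interval exclude 1. Each of these directions turned under some settings. Cdkn1a was lower in IR past the fold in all kept cells and in 5 of 7 gates, and in no gate was it higher past that fold. Of these 5 calls, that of the Cd79a gate held in 5 of 13 alternative settings and that of the Klf1 gate in 5 of 10. Bax lay slightly above Control in 7 of 7 gates, at 1.07 to 1.33 times its level, within the fold in each. Of 70 pairs of a member and a gate, 62 were measured, and of these 2 were at least 1.5-fold higher in IR, 6 at least 1.5-fold lower and 54 between. The 2 higher pairs were Zmat3 in the Cd79a gate and Phlda3 in the Itga2b gate. Both rested on few UMIs and fell within the fold, or below 1, when predicted doublets (barcodes scored by Scrublet as likely mixtures of cells) were removed. Among pairs not measured, Zmat3 read 2.77 (1.21 to 7.11) in the Retnlg gate, from 25 UMIs in IR and 8 in Control. Eda2r read 1.88 in the Cd79a gate, 1.75 in the Itga2b gate and 2.66 in the Retnlg gate. Zmat3 in the Siglech gate read 3.45, and Phlda3 read 1.31 in the Retnlg gate and 0.861 in the Siglech gate. The intervals of these Eda2r, Siglech and Phlda3 values include 1.

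Counts past the fold are given beside those of all genes measured the same way. In all kept cells 1 of 10 members was higher (Eda2r) and 1 lower (Cdkn1a), where 5.25% of all genes were higher and 9.82% lower; the median log2 ratio was 0.17 for the members and -0.05 for all genes. In the Mpo gate 0 of 10 were higher and 0 lower, against 3.82% and 5.71% of all genes, with medians of 0.02 and -0.04. In the Klf1 gate 0 of 10 were higher and 1 lower (Cdkn1a), against 4.06% and 5.56%, with medians of -0.09 and -0.02. The Cd79a gate had 1 of 9 higher (Zmat3) and 1 lower (Cdkn1a), against 5.57% and 5.41%, with medians of 0.13 and -0.02. In the Retnlg gate 0 of 7 were higher and 1 lower (Cdkn1a), against 5.12% and 4.42%, with medians of 0.10 and -0.01. The Siglech gate had 0 of 7 higher and 0 lower, against 5.36% and 12.2%, with medians of 0.16 and -0.06. The Itga2b gate had 1 of 9 higher (Phlda3) and 2 lower (Cdkn1a and Bbc3), against 3.88% and 5.43%, with medians of -0.08 and 0.00. The Cd34 and Adgrl4 gate had 0 of 10 higher and 1 lower (Cdkn1a), against 3.22% and 9.02%, with medians of 0.10 and -0.05. With so few members, shares of this size near those of all genes are not a result about the members.

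Cdkn1a stood at 75.7 CPM in Control against 36.6 in IR and 38.6 in IR+CBD over all kept cells, an IR level of 0.483 times Control (interval 0.470 to 0.497). In Control and IR+CBD its level was highest in the Itga2b gate and the Cd34 and Adgrl4 gate. In the Itga2b gate it was 103 CPM in Control against 59.4 in IR and 67.4 in IR+CBD (IR over Control 0.577, 0.524 to 0.633), and in the Cd34 and Adgrl4 gate 101, 57.6 and 62.7 CPM (0.569, 0.548 to 0.591). The Mpo gate held 63.6, 42.8 and 40.7 CPM, a ratio of 0.672 (0.647 to 0.699) that lay just inside the fold. In the Cd79a gate Cdkn1a measured 58.6, 38.9 and 43.0 CPM (0.665, 0.620 to 0.713), close to the bound of the fold, and in the Retnlg gate 35.3, 19.2 and 22.9 CPM (0.544, 0.468 to 0.632). The lowest levels were those of the Klf1 gate, 17.1, 10.2 and 8.54 CPM (0.595, 0.525 to 0.674). In the Siglech gate 59.4, 68.2 and 33.4 CPM gave a ratio of 1.15 whose interval, 0.802 to 1.61, spans 1. It was the exception to a lower level in IR, and 97.6% of its 42 Cdkn1a UMIs in IR came from 10 cells.

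**Figure D1:**
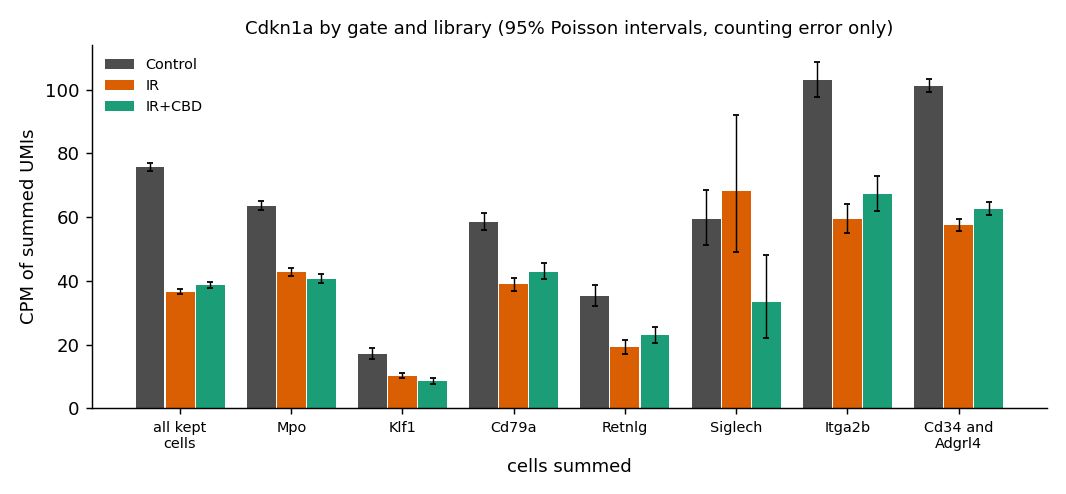
Cdkn1a in CPM of summed UMIs (vertical axis) in all kept cells and in each gate (horizontal axis), with 1 bar per library and exact Poisson 95% intervals. The Control bar is the tallest of each group except in the Siglech gate, where IR reads 68.2 CPM and Control 59.4 with overlapping intervals.

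In Control the levels of Cdkn1a ran from the Itga2b and the Cd34 and Adgrl4 gates, whose intervals overlap, down to the Mpo, Siglech and Cd79a gates, which overlap in turn, and then to the Retnlg and Klf1 gates, each apart from its neighbour. The same order held in IR, with the Mpo gate apart from the Cd79a gate, except for the Siglech gate, whose interval overlaps that of the Itga2b gate at the top. In IR+CBD the Cd79a, Mpo, Siglech and Retnlg gates followed one another with overlapping neighbours, and the Klf1 gate was again lowest.

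Among subdivisions of the gates Cdkn1a was highest in Cd34 and Adgrl4 cells with least Mpo. Those with at most 4 Mpo UMIs (967, 246 and 327 cells) held 235, 127 and 144 CPM, an IR level of 0.543 times Control (0.501 to 0.588), while those with at least 5 Mpo UMIs held 73.4, 51.0 and 52.3 CPM (0.695, 0.665 to 0.726). Cells of that gate with an Hlf UMI, Hlf being a gene of stem cells, held 123, 67.8 and 78.5 CPM (0.551, 0.519 to 0.584). Within the Cd79a gate, cells with an Igll1 UMI, a gene of B-cell precursors, held 67.6, 43.8 and 69.0 CPM (0.648, 0.578 to 0.726). Those with an Ighd UMI, a gene of mature B cells, held 38.6, 33.6 and 32.2 CPM (0.869, 0.680 to 1.11). Itga2b cells with a Pf4 UMI held 81.5, 51.3 and 72.4 CPM (0.629, 0.518 to 0.760). Cells in no gate held 136, 87.0 and 85.6 CPM (0.638, 0.593 to 0.687), so the lower level in IR was not confined to gated cells. These subdivisions were chosen after seeing the data.

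The Cdkn1a ratio over all cells lay nearer 1 once the mix of cells was held to that of Control. Weighted by the Control shares of UMIs over the gates met alone, Cdkn1a was 75.7 CPM in Control against 47.2 in IR and 49.7 in IR+CBD, giving 0.624 for IR over Control against 0.483 unweighted. In the Klf1 gate the ratio depended on cells that met other gates too. Cells that met the Klf1 gate alone held 7.49 CPM in Control against 7.08 in IR and 5.02 in IR+CBD, giving 0.945 (0.773 to 1.16), and with predicted doublets removed the ratio was 0.694 (0.584 to 0.827). Without predicted doublets the Retnlg gate gave 0.835 (0.646 to 1.08). In the Cd34 and Adgrl4 gate the ratio was 0.553 (0.531 to 0.577) without predicted doublets.

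Ccng1 was within the fold in all kept cells and in each gate. It stood at 22.2 CPM in Control against 24.3 in IR and 25.7 in IR+CBD over all kept cells (IR over Control 1.09, 1.05 to 1.14), and its ratios in the 7 gates ran from 0.969 to 1.24. The Ccng1 ratio over all kept cells stayed above 1 in 5 of 10 alternative settings and was 0.842 to 0.993 in the others. Its highest level was in the Klf1 gate, at 35.4, 36.1 and 39.0 CPM, overlapping the Siglech gate in Control and IR. In the Retnlg gate it read 16.8, 20.8 and 17.0 CPM (1.24, 1.04 to 1.48), the only gate whose interval excludes 1.

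Mdm2, the feedback gene, was nearly level between the libraries. Over all kept cells it stood at 53.8 CPM in Control against 49.96 in IR and 50.03 in IR+CBD (IR over Control 0.929, 0.903 to 0.954, and 0.921 to 1.14 over the alternative settings), and in the gates the ratios ran from 0.930 to 1.13. Under some settings Mdm2 fell to 0.638 in the Mpo gate, past the fold, and rose to 1.46 in the Klf1 gate. Its level was highest in the Retnlg gate, at 85.1 CPM in Control against 96.0 in IR and 83.9 in IR+CBD (1.13, 1.04 to 1.22), followed in each library by the Cd79a gate, whose interval did not overlap. The Klf1 gate was lowest in each library, at 37.7, 35.2 and 35.2 CPM. Mdm2 and Cdkn1a thus had different orders over the lineages.

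Among the members that act in apoptosis only Bax was above Control in 7 of 7 gates. It stood at 135 CPM in Control against 158 in IR and 143 in IR+CBD over all kept cells (1.17, 1.16 to 1.19), and in the gates the interval of its IR over Control ratio was above 1 in 6. The direction of Bax turned under some settings in 4 gates, to 0.938 thinned and 0.94997 as per-cell mean in the Retnlg gate, 0.973 thinned in the Siglech gate, 0.916 in cells meeting the Itga2b gate alone and 0.998 in Cd79a cells with an Ighd UMI. In the Klf1 gate, where it was highest, Bax read 170.3, 192 and 181 CPM (1.13, 1.09 to 1.17). In the Cd79a gate it read 119.7, 142 and 127 CPM (1.19, 1.14 to 1.24). For the Siglech gate 110.0, 146 and 139 CPM gave 1.33 (1.04 to 1.68). The Retnlg gate was lowest, at 58.4, 62.6 and 55.3 CPM (1.07, 0.973 to 1.18).

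Bbc3, which encodes PUMA, differed in direction between gates. It measured 16.2 CPM in Control against 14.6 in IR and 16.0 in IR+CBD over all kept cells (0.8995, 0.855 to 0.946). In the Itga2b gate it was 26.1, 15.7 and 22.0 CPM, lower in IR past the fold at 0.601 (0.497 to 0.723). It was 15.4, 12.4 and 14.1 CPM in the Cd34 and Adgrl4 gate (0.809, 0.742 to 0.881). In the Cd79a gate it was 15.4, 18.1 and 24.5 CPM, above Control at 1.17 (1.04 to 1.32). The difference between gates was not tested.

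Aen measured 34.8 CPM in Control against 40.3 in IR and 37.4 in IR+CBD (1.16, 1.12 to 1.20; 0.735 in cells with fewer than 3 G2/M UMIs) and was highest in the Klf1 gate, at 54.3, 56.6 and 56.7 CPM, apart from the next gate in each library. Its ratios were above 1 in 6 of 7 gates, at most 1.23. Under some settings Aen turned, to 0.495 in the Retnlg gate and 0.552 in the Itga2b gate. It also fell to 0.918 in the Cd79a gate and 0.908 in the Klf1 gate. Trp53inp1 was a gene of the B-lineage gate above all. It read 74.1, 72.2 and 82.2 CPM in the Cd79a gate (0.975, 0.921 to 1.03), against 35.8, 36.9 and 37.2 in the Retnlg gate and 5.21, 4.23 and 4.92 in the Mpo gate. Trp53inp1 in the Cd34 and Adgrl4 gate read 7.80, 5.45 and 6.42 CPM, below Control at 0.698 (0.614 to 0.792) but within the fold. It stayed within the fold there in 8 of 13 alternative settings, and the lowest ratio was 0.524.

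Phlda3 and Eda2r were scarce. Phlda3 stood at 2.63 CPM in Control against 3.18 in IR and 3.27 in IR+CBD (1.21, 1.07 to 1.36; 1.01 weighted by combinations of gates and 0.538 in cells with fewer than 3 G2/M UMIs), and was highest in the Klf1 gate at 6.81, 5.87 and 6.23 CPM. In the Itga2b gate it was 2.28, 3.81 and 2.53 CPM, past the fold at 1.67 (1.02 to 2.77), from 30, 42 and 22 UMIs. There 1 IR cell held 13 of the 42 UMIs, and without predicted doublets the ratio was 0.713 (0.349 to 1.41). Eda2r stood at 0.436 CPM in Control against 0.781 in IR and 0.680 in IR+CBD, from 85, 158 and 118 UMIs, past the fold over all kept cells at 1.79 (1.37 to 2.36). This Eda2r call held in 6 of 10 alternative settings, and in cells with fewer than 3 G2/M UMIs the ratio was 0.958. In the Klf1 gate, its highest in Control and IR+CBD, it read 1.56, 1.61 and 1.62 CPM, a ratio of 1.03 (0.704 to 1.54), so the higher level over all cells was not seen there. The Klf1 gate held more cells in IR (1446) than in Control (586), and with the Control mix of gates met alone Eda2r stood at 0.436, 0.605 and 0.511 CPM. Eda2r in the Siglech gate had 0 UMIs in each library, which allows up to 1.16, 5.99 and 4.40 CPM.

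Zmat3 was above Control in both irradiated libraries over all kept cells, within the fold, at 2.14 CPM in Control against 3.12 in IR and 3.16 in IR+CBD (1.46, 1.29 to 1.65). In the Cd79a gate it read 1.49, 2.89 and 2.36 CPM, from 47, 104 and 61 UMIs, past the fold at 1.94 (1.36 to 2.81). Cells that met the Cd79a gate alone gave 1.33 (0.841 to 2.14), and the gate without predicted doublets 1.47 (0.904 to 2.44). In the Mpo gate Zmat3 read 1.15, 1.63 and 1.69 CPM (1.42, 1.11 to 1.80) and in the Cd34 and Adgrl4 gate 1.58, 2.05 and 2.08 CPM (1.30, 1.02 to 1.65). Under some settings the Zmat3 ratio reached 3.98 in the Mpo gate and ran from 0.782 to 1.92 in the Cd34 and Adgrl4 gate. Zmat3 was close to level in the Klf1 gate, where its Control level was highest, at 6.32, 5.99 and 6.11 CPM (0.948, 0.784 to 1.15).

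**Figure D2:**
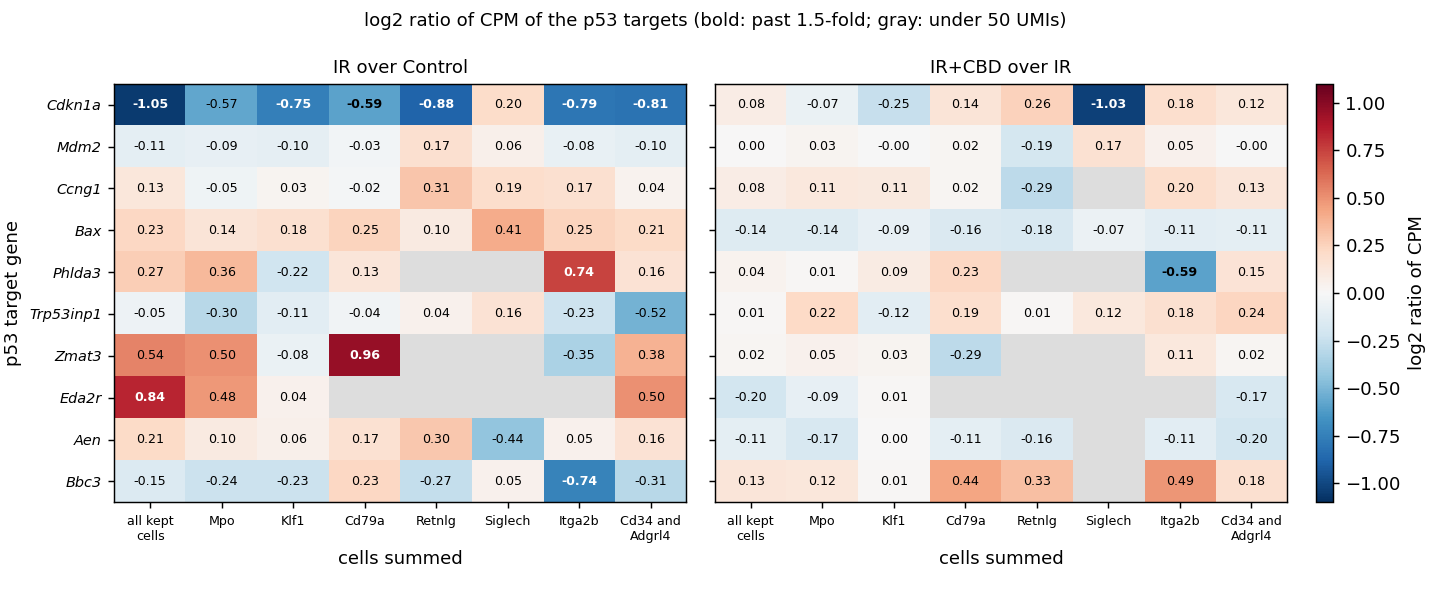
The log2 ratio of CPM of each p53 target (vertical axis) in all kept cells and in each gate (horizontal axis), for IR over Control at left and IR+CBD over IR at right, with values past the 1.5-fold rule in bold and pairs under 50 UMIs in gray. Cdkn1a reads -1.05 in all kept cells for IR over Control, and most other cells of the plot are pale.

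Summed, the 10 members stood at 362 CPM in Control against 350.1 in IR and 337 in IR+CBD over all kept cells (IR over Control 0.966, 0.956 to 0.976). Without Cdkn1a the sum was 287, 313 and 299 CPM (1.09, 1.08 to 1.11), so the sign of the difference depended on that gene. By gate the sum with Cdkn1a in IR over Control had an interval above 1 in the Klf1 gate (1.03, 1.01 to 1.06) and the Siglech gate (1.16, 1.002 to 1.34), the latter from 331 CPM in Control against 383 in IR and 322 in IR+CBD. The interval was below 1 in the Mpo gate (0.976, 0.961 to 0.991), the Itga2b gate (0.915, 0.877 to 0.955) and the Cd34 and Adgrl4 gate (0.933, 0.918 to 0.949). It included 1 in the Cd79a gate (1.02, 0.994 to 1.04) and the Retnlg gate (1.03, 0.981 to 1.08). Without Cdkn1a, left out after its ratios were seen, the sum read above Control in 7 of 7 gates, within the fold, and Bax made up 158 of its 313 CPM in IR over all kept cells. It read below Control in cells of no gate (0.961, 0.918 to 1.01) and in Itga2b cells with a Pf4 UMI (0.951, 0.874 to 1.04). By gate its interval was above 1 in the Mpo gate (1.04, 1.03 to 1.06), the Klf1 gate (1.05, 1.03 to 1.08), the Cd79a gate (1.08, 1.05 to 1.11), the Retnlg gate (1.11, 1.05 to 1.16) and the Cd34 and Adgrl4 gate (1.07, 1.05 to 1.09). It included 1 in the Siglech gate (1.16, 0.989 to 1.36) and the Itga2b gate (1.05, 0.996 to 1.097). Sums were highest in the Cd79a gate (391, 398 and 402 CPM) and lowest in the Retnlg gate (256, 263 and 244 CPM) in each library.

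**Figure D3:**
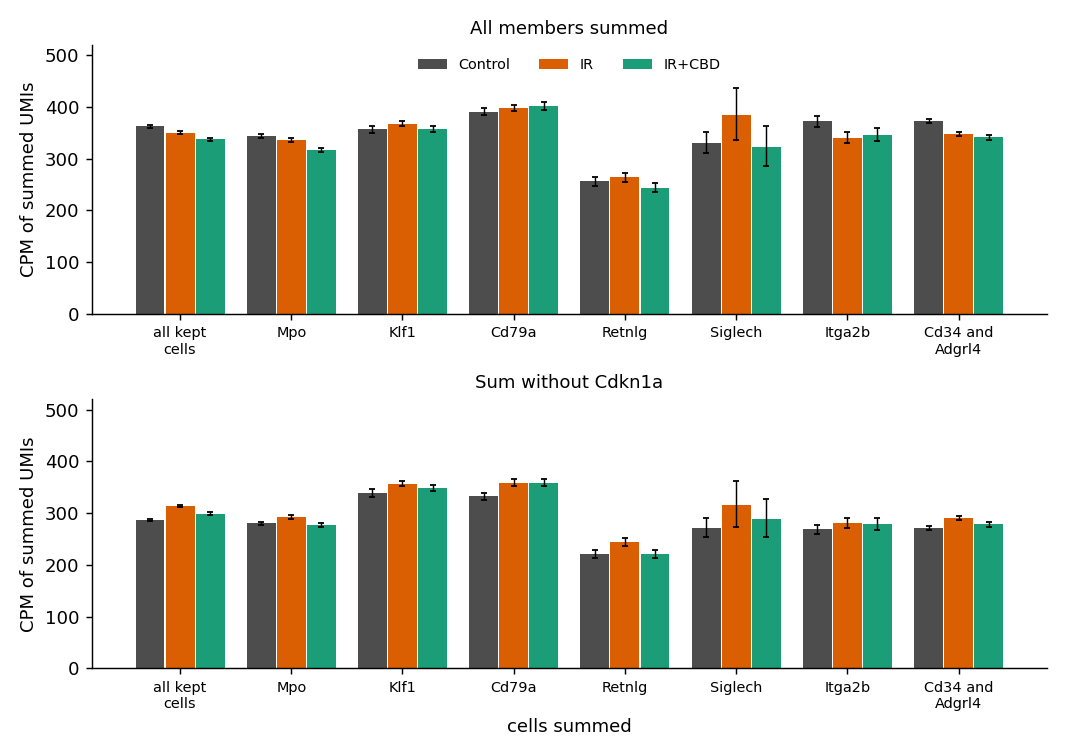
CPM of all 10 members summed (top) and of the sum without Cdkn1a (bottom) on the vertical axes, by gate on the horizontal axes, with 1 bar per library and exact Poisson 95% intervals. Over all kept cells the top bars read 362, 350.1 and 337 CPM and the bottom bars 287, 313 and 299 CPM.

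Members were also counted per cell at equal depth. After thinning each cell to 5000 UMIs, the share of cells with a UMI of at least 3 members was 13.4% in Control against 11.2% in IR and 10.2% in IR+CBD, where unthinned cells gave 51.0%, 49.2% and 45.0%. Thinning left out 2798, 3017 and 2902 shallower cells. In the Cd34 and Adgrl4 gate the thinned shares were 14.8%, 11.3% and 10.6% (unthinned 84.3%, 87.9% and 80.1%), and in the Klf1 gate 11.6%, 12.1% and 11.9% (unthinned 89.9%, 89.3% and 89.9%). The Cd79a gate gave 15.3%, 15.8% and 14.5% thinned and 29.5%, 26.3% and 23.6% unthinned. Of the Siglech gate, 9 of 45 thinned IR cells gave 20% (exact binomial interval 9.58% to 34.6%), with 7.84% in Control and 8.11% in IR+CBD (unthinned 50% in IR, 34.1% in Control and 27.8% in IR+CBD), and these intervals overlap.

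Comparing IR+CBD with IR, none of 59 measured pairs of a member and a gate was higher past the fold. The 2 lower pairs were Cdkn1a in the Siglech gate and Phlda3 in the Itga2b gate, and 57 pairs lay between. Cdkn1a over all kept cells was 36.6 CPM in IR and 38.6 in IR+CBD, giving 1.06 (1.02 to 1.09), and stayed below the 75.7 CPM of Control. Bax was lower in IR+CBD than in IR in 7 of 7 gates, at 0.883 to 0.954 times its level, within the fold in each. The interval lay below 1 in 5 of them. This direction of Bax turned under some settings in all kept cells (up to 1.01) and in 6 of 7 gates, all but the Klf1 gate, with highest values from 1.01 in the Mpo gate to 1.20 in the Siglech gate.

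In all kept cells 0 of 10 members were higher and 0 lower, where 2.82% of all genes were higher and 2.85% lower, and the median log2 ratio was 0.02 for the members and 0.00 for all genes. The Mpo gate had 0 of 10 higher and 0 lower (all genes 3.12% and 2.11%; medians 0.02 and 0.01), and the Klf1 gate 0 of 10 and 0 (all genes 1.22% and 4.03%; medians 0.01 and -0.02). In the Cd79a gate 0 of 9 were higher and 0 lower, against 3.07% and 3.19% of all genes, with medians of 0.02 and 0.03. The Retnlg gate had 0 of 7 higher and 0 lower, against 2.17% and 3.31%, with medians of -0.16 and -0.04. In the Siglech gate, with 4 members measured, 0 were higher and 1 lower (Cdkn1a), against 9.29% and 4.57%, with medians of 0.02 and 0.06. The Itga2b gate had 0 of 9 higher and 1 lower (Phlda3), against 2.63% and 2.19%, with medians of 0.11 and 0.00. Cells of the Cd34 and Adgrl4 gate had 0 of 10 higher and 0 lower, against 2.80% and 2.46%, with medians of 0.07 and 0.02.

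The Cdkn1a interval for IR+CBD over IR was above 1 in 4 gates and below 1 in 3. It was above 1 in the Cd34 and Adgrl4 gate (57.6 CPM in IR and 62.7 in IR+CBD, 1.09, 1.04 to 1.14) and the Itga2b gate (59.4 and 67.4 CPM, 1.13, 1.01 to 1.27). The Cd79a gate gave 1.103 (1.02 to 1.19) and the Retnlg gate 1.19 (1.02 to 1.40). It was below 1 in the Klf1 gate (10.2 and 8.54 CPM, 0.841, 0.741 to 0.953), the Mpo gate (42.8 and 40.7 CPM, 0.952, 0.910 to 0.997) and the Siglech gate (68.2 and 33.4 CPM, 0.489, 0.292 to 0.808). The Siglech value rests on 42 UMIs in IR and 28 in IR+CBD, and without the 10 cells richest in UMIs of members it was 1.101. Under some settings Cdkn1a also turned, to 0.825 in the Cd79a gate, 0.797 in the Itga2b gate and 1.07 in the Klf1 gate. Within the Cd79a gate the cells with an Igll1 UMI read 43.8 CPM in IR and 69.0 in IR+CBD, past the fold at 1.58 (1.38 to 1.80), next to 67.6 in Control. Those with an Ighd UMI read 33.6 and 32.2 CPM (0.958, 0.740 to 1.24), and those with neither UMI 35.8 and 33.1 CPM (0.923, 0.819 to 1.04). Cells with an Igll1 UMI numbered 868 in IR and 433 in IR+CBD, with medians of 7800 and 10509 UMIs. The share of background UMIs in these subdivisions was not estimated.

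Bbc3 was 18.1 CPM in IR and 24.5 in IR+CBD in the Cd79a gate (1.35, 1.21 to 1.51), and 15.7 and 22.0 CPM in the Itga2b gate (1.40, 1.13 to 1.73), within the fold in both. Mdm2 read 49.96 CPM in IR and 50.03 in IR+CBD over all kept cells, and only in the Retnlg gate did its interval exclude 1 (96.0 and 83.9 CPM, 0.874, 0.809 to 0.944). Under some settings Mdm2 passed the fold, at 1.69 in the Mpo gate and 0.600 in the Klf1 gate. Ccng1 gate ratios reached 1.15 at most, and fell to 0.502 in the Siglech gate, where it had 19 and 13 UMIs and was not measured by the rule. Aen was lower in IR+CBD in the Cd34 and Adgrl4 gate, at 43.0 and 37.4 CPM (0.871, 0.822 to 0.921), and the same in the Klf1 gate at 56.6 and 56.7 CPM. Trp53inp1 was 72.2 and 82.2 CPM in the Cd79a gate (1.14, 1.07 to 1.21). Zmat3 and Eda2r lay within the fold in every gate measured, as did Phlda3 apart from the Itga2b gate, where 3.81 and 2.53 CPM gave 0.665 (0.378 to 1.14). That Phlda3 interval includes 1.

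IR+CBD over Control shares both of its libraries with the other ratios and is given for reference. Cdkn1a was 0.510 (0.496 to 0.525) times Control in all kept cells, and its interval was below 1 in 7 of 7 gates, from 0.5001 in the Klf1 gate to 0.733 in the Cd79a gate. Its direction turned in the Retnlg gate without predicted doublets (1.11) and in the Klf1 gate in cells with fewer than 3 G2/M UMIs (1.01), and was 1.02 (0.904 to 1.15) in Cd79a cells with an Igll1 UMI. Bax was 1.06 (1.05 to 1.08), Mdm2 0.930 (0.904 to 0.957), Zmat3 1.48 (1.30 to 1.68) and Eda2r 1.56 (1.17 to 2.09). That Eda2r call held in 6 of 10 alternative settings, and the lowest ratio was 0.455. Bbc3 in the Cd79a gate was 1.59 (1.41 to 1.79). The summed members were 0.931 (0.921 to 0.941).

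A list of 43 other p53 targets was compared in the same way for IR over Control. It summed to 1599.6 CPM in Control against 1621 in IR and 1655 in IR+CBD, Rps27l making up 42.2%, and in all kept cells 1 of 43 was higher (Pvt1) and 3 lower (Gdf15, Tnfrsf10b and Plk2), with a median of -0.12 (all genes 5.25% higher and 9.82% lower, median -0.05). Higher and lower counts were 2 and 3 of 43 in the Mpo gate (all genes 3.82% and 5.71%), 0 and 2 of 42 in the Klf1 gate (4.06% and 5.56%), 3 and 1 of 41 in the Cd79a gate (5.57% and 5.41%), and 3 and 0 of 38 in the Retnlg gate (5.12% and 4.42%). They were 2 and 1 of 21 in the Siglech gate (5.36% and 12.2%), 3 and 6 of 40 in the Itga2b gate (3.88% and 5.43%) and 2 and 5 of 43 in the Cd34 and Adgrl4 gate (3.22% and 9.02%). With so few genes, counts near these shares are not a result about the list. The 6 of 40 lower in the Itga2b gate stood further above its share (5.43%), and this difference was not tested. Pmaip1, which encodes the apoptosis protein NOXA, was past the fold higher in IR in 6 of 7 gates but not over all kept cells, where it read 17.8, 23.1 and 26.4 CPM (1.29, 1.24 to 1.35). Pmaip1 in the Cd34 and Adgrl4 gate read 19.2, 31.9 and 36.8 CPM (1.66, 1.56 to 1.77), and the Klf1 gate was the exception (1.09, 0.831 to 1.44). Pmaip1 is named for its ratios, and its values under the alternative settings were not analysed here.

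Other genes of that list were past the fold in fewer gates. Pvt1, a noncoding RNA, read 12.1, 39.1 and 27.9 CPM in the Retnlg gate (3.24, 2.71 to 3.88), where Pidd1 read 1.82, 3.10 and 3.90 (1.70, 1.02 to 2.91). Ptpn14 read 0.917, 2.25 and 1.94 CPM in the Cd79a gate (2.45, 1.59 to 3.89). Lower in the Cd34 and Adgrl4 gate were Plk2 (8.68, 3.10 and 4.98 CPM; 0.357, 0.305 to 0.416), Btg2 (109, 65.3 and 82.1; 0.597, 0.576 to 0.619), Tnfrsf10b (4.24, 2.26 and 3.31; 0.533, 0.439 to 0.644), Cd80 (2.23, 1.27 and 1.11; 0.567, 0.435 to 0.732) and Ephx1 (0.706, 0.357 and 0.503; 0.506, 0.304 to 0.818). In the Itga2b gate Gdf15 read 15.3, 6.90 and 11.3 CPM (0.452, 0.342 to 0.591) and Ddit4 18.9, 10.7 and 18.5 (0.566, 0.451 to 0.707). Trp53inp2 in the Itga2b gate (0.635, 0.375 to 1.05) and Dcxr in the Siglech gate (0.559, 0.233 to 1.16) were past the fold with intervals that include 1.

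For IR+CBD over IR, 0 of the 43 other targets were higher and 0 lower in all kept cells and in the Mpo gate. The Klf1 gate had 0 higher and 2 lower of 42, the Cd79a gate 1 and 0 of 41, the Retnlg gate 0 and 1 of 39, the Siglech gate 1 and 2 of 9, the Itga2b gate 4 and 0 of 37 (all genes 2.63% and 2.19%) and the Cd34 and Adgrl4 gate 1 and 0 of 43. The shares of all genes in the other gates are those given above for this comparison. Plk3 in the Cd79a gate read 3.39 CPM in IR and 5.62 in IR+CBD (1.66, 1.29 to 2.13), and Fas in the Itga2b gate 2.81 and 4.72 (1.68, 1.03 to 2.77). Gadd45a in the Siglech gate read 56.8 and 21.5 CPM (0.378, 0.201 to 0.685) and Apaf1 there 37.3 and 69.1 (1.85, 1.12 to 3.15). Intervals that include 1 were those of Triap1 in the Siglech gate (0.657, 0.401 to 1.07), Slc19a2 in the Retnlg gate (0.655, 0.396 to 1.07) and Perp in the Klf1 gate (0.624, 0.335 to 1.12).

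The genes that regulate p53 were compared in the same way. The 13 regulators summed to 458 CPM in Control against 484 in IR and 475 in IR+CBD, and Trp53, the gene of p53 itself and the most abundant, read 139.8, 161 and 151 CPM (1.15, 1.13 to 1.17). Over all kept cells 1 of 11 measured was higher in IR and 0 lower (all genes 5.25% and 9.82%), the higher being Cdkn2a, at 0.200, 0.504 and 0.340 CPM from 39, 102 and 59 UMIs (2.52, 1.73 to 3.74), and in the Cd79a gate it gave 2.30 (1.5005 to 3.59). IR over Control was 1.05 for Mdm4 and 0.987 for Usp7, which act on p53 stability. For the damage kinases it was 0.980 for Atm, 1.102 for Atr, 1.07 for Chek1 and 1.19 for Chek2. Among other regulators it was 1.01 for the phosphatase Ppm1d, 0.758 for Trp53bp1 and 0.906 for Hexim1. Atr was past the fold in the Retnlg gate (1.55, 1.23 to 1.97), and Chek2 and Hexim1 in the Siglech gate (each 0.646, 0.248 to 1.42) from 7 IR UMIs each. The p53 relatives Trp63 and Trp73 had 7, 14 and 7 and 8, 20 and 10 UMIs and were not measured. For IR+CBD over IR 0 of 11 regulators were past the fold in all kept cells (all genes 2.82% higher and 2.85% lower) and 0 in each gate.

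Lists of other processes were compared as well. Of 19 immediate early genes, which respond to handling and signalling, 13 were lower in IR and 0 higher over all kept cells (all genes 9.82% lower and 5.25% higher; median -0.75), with sums of 3421, 2185 and 2408 CPM led by Jun. In the Cd34 and Adgrl4 gate 14 of 19 were lower (all genes 9.02%), at 3699, 2207 and 2531 CPM. The Itga2b gate had 15 of 19 lower (5.43%), the Klf1 and Mpo gates 11 of 19 each (5.56% and 5.71%), the Cd79a gate 7 of 19 (5.41%), the Retnlg gate 4 of 18 (4.42%) and the Siglech gate 12 of 18 (12.2%). Over the 21 gate and library points, 7 from each library with cells shared between gates, Cdkn1a and the summed immediate early genes had a Pearson r of 0.75 on the log2 scale. Btg2 is in both that list and the list of other p53 targets. Of 18 interferon genes, led by Ifi27l2a, 17 were higher in IR over Control (all genes 5.25%), at 314, 1028 and 317 CPM with a median of 2.27, and 17 lower in IR+CBD over IR (all genes 2.85%), with a median of -2.01. None of 18 S phase genes (2005, 2122 and 1951 CPM, led by Pcna; median 0.09) or 16 G2/M genes (1907, 1964 and 1974 CPM, led by Top2a; median 0.03) was past the fold for IR over Control, except in the Siglech gate, where 7 G2/M genes were higher (all genes 5.36%) and 5 S phase genes lower (12.2%). The part of these lists in the Cdkn1a result was not tested.

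Markers of cell makeup also differed between the libraries, not all in the direction of the Cdkn1a difference. In the Cd34 and Adgrl4 gate all 9 stem and multipotent markers were detected, Adgrl4 by the rule of the gate, and Hlf read 49.3, 21.5 and 27.7 CPM. Endothelial genes over all kept cells read 4.36, 1.81 and 1.76 CPM (4 of 4 detected, led by Emcn), and 3 stromal genes 2.29, 0.870 and 1.78 (led by Cxcl12). Basophil and mast cell genes read 387, 269.5 and 261 CPM, led by Prss34 in Control and by Mcpt8 in the irradiated libraries, and 4 monocyte genes, led by Ly6c2, read 766, 784 and 669. The 3 macrophage genes, led by Vcam1, read 12.4, 8.97 and 11.9 CPM, and the 3 T and NK genes, led by Nkg7, 289, 277 and 340.3. In the Mpo gate Nkg7 read 430, 511 and 616 CPM and Vcam1 9.78, 7.52 and 15.2, so neither sum follows its cell type alone. Over all kept cells Cd3g read 2.71, 2.13 and 1.81 CPM and Cd3e 1.20, 0.885 and 0.749. Adgre1 read 5.20, 3.35 and 3.12 CPM there and C1qa 0.785, 1.07 and 0.461. In the Siglech gate the 6 neutrophil markers, all detected, read 2632, 9332 and 3233 CPM, led by S100a8, and the 4 monocyte genes 796, 1648 and 1012. There Klf1, Gata1, Pf4, Gp1bb, Gp9, Hlf, Procr, Cpa3, Ms4a2, Prss34, Emcn, Ptprb, Kdr, Cd3e, Cd3g, C1qa, Vcam1 and all 3 stromal genes were at 0 in IR. Ptprb was also at 0 in the Cd34 and Adgrl4 gate of IR. Their part in the result was not tested.

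Across the 21 gate and library points, which share libraries and cells, the 8 other members with at least 1000 UMIs were compared with Cdkn1a, which leaves out Eda2r. Pearson r on log2 values ran from -0.41 for Zmat3 to 0.22 for Bbc3, with 0.14 for Mdm2 and -0.40 for Ccng1. Among 12468 genes compared, the closest to Cdkn1a were Sash1 (r 0.93), Mfge8 (0.93), Cd27 (0.93), Homer3 (0.92) and Slc30a7 (0.92). Close to the summed members were Ilvbl (0.97), Gabpa (0.97), Smchd1 (0.96) and 4921524J17Rik (0.95). The largest r of a member with the sum were 0.77 for Bax and 0.77 for Bbc3. Each member is part of that sum, so these values were partly fixed by construction.

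Since Cdkn1a and Bbc3 are the members that were lower past the fold in a gate of IR, promoter sequences of the members were read for the core of paired p53 half-sites, from RefSeq on build GRCm38.p6, which is not the build of the files. A match was the tetramer CATG or CAAG or CTTG or CTAG, then any 6 bases, then again any of these 4 tetramers. The 16 motifs this gives, such as CATGNNNNNNCATG, include their own reverse complements, so that both strands are read, and were sought in windows of 300 bases (250 before the start and 50 after). Windows were available for 8 of 10 members, and 3 of these had a match (Cdkn1a, Aen and Bbc3) in 4 of the 12 windows, where 8.19% of 27025 genes and 7.22% of 32851 windows had one. Of the other p53 targets 8 of 36 with a window had a match. The Aen match is CTTGTCCGGGCAAG. The 150 bases shown for Cdkn1a and Bbc3 lie immediately before 1 annotated start of each, at chr17:29090829-29090978 and chr7:16309433-16309582 on the plus strand, upstream of the transcribed region, with the match in capitals. The windows at the other starts of Cdkn1a and Bbc3 had 0 matches. The Cdkn1a match ends 34 bases before the start and the Bbc3 match 80 bases. A match is a description, not a site or a cause.
Cdkn1a: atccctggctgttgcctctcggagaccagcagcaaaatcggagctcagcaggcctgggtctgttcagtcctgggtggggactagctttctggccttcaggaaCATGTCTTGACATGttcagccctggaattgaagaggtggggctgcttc
Bbc3: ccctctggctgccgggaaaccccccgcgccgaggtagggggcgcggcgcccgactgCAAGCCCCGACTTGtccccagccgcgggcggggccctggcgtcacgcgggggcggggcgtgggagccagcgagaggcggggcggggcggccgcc

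At day 14, then, Cdkn1a read below Control in 6 of 7 gates. No gate held more than 1 measured member above Control past the fold. With 3.22% to 5.57% of all genes higher per gate, this is near the background and not a result about the members. With pairs under 50 UMIs counted too, the Cd79a, Itga2b and Retnlg gates each held more than 1, Eda2r among them. The intervals of these Eda2r ratios (1.88, 1.75 and 2.66) include 1, while that of Zmat3 in the Retnlg gate (2.77) does not. Among the other p53 targets named, Pmaip1 was higher past the fold in 6 of 7 gates, and Pvt1 in the Retnlg gate. Lower past it were Plk2, Btg2, Tnfrsf10b, Cd80 and Ephx1 in the Cd34 and Adgrl4 gate, and Gdf15 and Ddit4 in the Itga2b gate. These genes were named for their ratios, and their values under the alternative settings were not analysed here. Within the fold, Bax read above Control in 7 of 7 gates, with directions that turned in 4 of them under some settings. Of the Siglech gate, with 46 IR cells, 6 of 7 measured members read above Control, and only for Bax did the interval exclude 1. Each of these directions turned under some settings, Cdkn1a running from 0.156 to 1.77. With 1 library per group these values compare libraries, and early times were not analysed here.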

How the data were processed

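Bone marrow libraries, 1 per group, were analysed from the deposited matrices of UMI counts, which the authors made per the labels with Cell Ranger 4.0 on GRCm39, while the matrix headers name 7.0.1. Cells with at least 200 genes and at most 5% of UMIs from the 37 genes starting with mt- were kept. Counts of all kept cells, or of cells in a gate, were summed per gene and scaled to CPM. Intervals are exact Poisson for CPM, exact conditional binomial for ratios and exact binomial for shares, at 95%, and cover counting error only. With 1 library per group no test was made and no p is given.

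Genes were named by rule: the 10 members; every regulator of p53; other p53 targets past the fold of 1.5 in a gate, at most 20, taken by the interval bound nearest 1; the 5 genes with the highest Pearson r of log2(CPM + 1) with Cdkn1a and with the summed members among genes with at least 1000 UMIs; marker genes; and the most abundant gene of each list. Of the genes so named, 2 are not reported. Members and lists were chosen with earlier results of these data known. The lists were p53 regulators, other p53 targets, immediate early, interferon, S phase and G2/M genes, markers of each gate, and endothelial, basophil and mast cell, monocyte, macrophage, T and NK, and stromal markers.

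Predicted doublets were kept. As an alternative Scrublet (scanpy 1.11.5) removed the highest-scoring cells at 0.8% per 1000 cells, 911 of Control, 856 of IR, 844 of IR+CBD, where its automatic threshold marked 427, 435 and 474. Other alternatives were a mitochondrial limit of 10%, a minimum of 1000 genes, cells meeting exactly 1 gate, doubled gate minimums, thinning to 5000 UMIs (seed 1), per-cell mean CPM, median-ratio scaling, leaving out the 10 cells with the most member UMIs, cells with fewer than 3 G2/M UMIs, the sum without its largest member, weighting by Control shares, a fold of 2 and minimums of 20 or 1 UMIs. Subdivided gates, the sum without Cdkn1a and weighting over combinations of gates, and for each member over gates met alone, were added after seeing the data. The tools were Python 3.11.15, numpy 2.4.6, scipy 1.17.1, pandas 2.3.3 and matplotlib 3.10.9, and the counting steps were tested on simulated data.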

Additional observations from a re-analysis of the deposited data

Results flagged for a closer look

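Bbc3 differed in direction between gates for IR over Control. In the Cd79a gate the ratio was 1.17 (1.04 to 1.32) and in the Itga2b gate 0.601 (0.497 to 0.723), with the interval above 1 in 1 gate and below 1 in 4. Cdkn1a differed in direction between gates for IR+CBD over IR, at 1.19 (1.02 to 1.40) in the Retnlg gate and 0.489 (0.292 to 0.808) in the Siglech gate, with the interval above 1 in 4 gates and below 1 in 3. This direction of Cdkn1a turned under some settings in the Cd79a, Itga2b, Klf1 and Siglech gates. The differences between gates were not tested.

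Barcodes with at least 200 genes that were over the mitochondrial limit, which the report leaves out, numbered 1482, 1356 and 1179 for Control, IR and IR+CBD. In these Trp53inp1 read 34.6, 52.3 and 42.1 CPM, past the fold for IR over Control at 1.51 (1.23 to 1.86), where kept cells gave 0.964 (0.922 to 1.01). The difference was not tested.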

How the results depend on the processing

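With 1 library per group, a difference between groups and a difference between libraries or pools of mice cannot be told apart. Gates rest on raw UMIs, so deeper cells meet more of them, and gates share cells. Depth limits Phlda3, Zmat3 and Eda2r, and the Siglech gate of IR holds 46 cells. No paired analysis was possible because each group has 1 library.

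Of 62 member and gate ratios for IR over Control, 8 were past the fold, and 0 of these stayed past it under every alternative, while 32 of the 54 within it stayed within. For IR+CBD over IR 0 of 2 and 34 of 57 stayed, and for IR+CBD over Control 2 of 11 and 31 of 51. Cdkn1a in IR over Control ranged from 0.326 to 0.644 in all kept cells, past the fold in 10 of 10 alternatives, and was below 1 under every alternative in every gate except the Siglech gate (0.156 to 1.77). It was past the fold in 12 of 13 alternatives in the Cd34 and Adgrl4 gate, 11 of 12 in the Itga2b gate, 7 of 10 in the Retnlg gate, 5 of 10 in the Klf1 gate and 5 of 13 in the Cd79a gate. The values below moved out of the interval or reversed, and the cause was not tested.

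Over all kept cells, Cdkn1a in IR over Control (0.483) was 0.460 thinned, 0.326 in G2/M-low cells, 0.465 as per-cell mean, 0.502 with median-ratio scaling, and 0.624 and 0.644 weighted by gates alone and by combinations. In IR+CBD over IR (1.06) it was 1.47 in G2/M-low cells and 1.13 as per-cell mean. The summed members in IR over Control (0.966) were 0.922 thinned, 0.888 in G2/M-low cells, 0.955 as per-cell mean, 1.003 scaled, 0.843 without the largest member and 1.09 without Cdkn1a. In IR+CBD over IR (0.964) they were 0.953 thinned, 1.03 in G2/M-low cells, 0.989 as per-cell mean, 1.01 without the largest member, 0.953 without Cdkn1a, and 0.979 under either weighting.

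By gate, for IR over Control, the summed members of the Mpo gate (0.976) were 0.994 with doubled minimums, 0.783 in G2/M-low cells, 0.943 as per-cell mean, 1.001 scaled, 0.876 without the largest member and 1.04 without Cdkn1a. The Klf1 gate (1.03) gave 1.07 with exactly 1 gate, 1.09 thinned, 1.07 in G2/M-low cells and 0.940 without the largest member. The Cd79a gate (1.02) gave 0.944 without the largest member, 1.08 without Cdkn1a and 1.06 in Ighd cells. The Retnlg gate (1.03) gave 1.08 without predicted doublets, 0.978 without the largest member and 1.11 without Cdkn1a. For the Itga2b gate (0.915) the values were 0.870 without predicted doublets, 0.811 with exactly 1 gate, 0.839 thinned, 0.788 in G2/M-low cells, 0.853 as per-cell mean, 0.798 without the largest member and 1.05 without Cdkn1a. For the Cd34 and Adgrl4 gate (0.933) they were 0.761 with exactly 1 gate, 0.8003 thinned, 0.758 in G2/M-low cells, 0.867 as per-cell mean, 0.965 scaled, 0.804 without the largest member, 1.07 without Cdkn1a, 0.790 and 0.988 in cells with at most 4 and at least 5 Mpo UMIs, and 0.890 in Hlf cells. The Siglech gate (1.16) stayed within its interval in 12 of 12.

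The count of pairs higher in IR over Control (2) was 0 at a fold of 2, without predicted doublets, with exactly 1 gate and thinned, 1 without the top 10 cells and in G2/M-low cells, and 5 and 7 at minimums of 20 and 1 UMIs. The count lower (6) was 0 at a fold of 2. For IR+CBD over IR the count higher (0) was 1 with exactly 1 gate and thinned and 4 in G2/M-low cells. The count lower (2) was 1 at a fold of 2 and thinned, 6 and 8 at minimums of 20 and 1 UMIs, and 0 without predicted doublets, with exactly 1 gate, with doubled minimums, without the top 10 cells and in G2/M-low cells.

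Calls reversed as follows. In G2/M-low cells Eda2r over all kept cells was 0.958 for IR over Control and 0.455 for IR+CBD over Control (0.830 as per-cell mean), and for IR+CBD over Control Cdkn1a was 1.01 in the Klf1 gate and Aen 1.18 in the Siglech gate. Cdkn1a in the Retnlg gate was 1.11 for IR+CBD over Control without predicted doublets. In the Siglech gate it was 1.101 for IR+CBD over IR without the top 10 cells and 2.44 in G2/M-low cells. Phlda3 in the Itga2b gate was 0.713 without predicted doublets, 0.593 with exactly 1 gate, 0.780 thinned, 0.999 without the top 10 cells and 0.789 in G2/M-low cells for IR over Control, and 1.49 and 1.30 for IR+CBD over IR without predicted doublets and with exactly 1 gate.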
